A study of Mus musculus with 4 samples.

Results

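The nuclear genes for mitochondrial complex III, complex IV and ATP synthase were examined in cultured neural progenitors of the embryonic mouse brain. They were every entry named Uqcr, Cox4 to Cox8 or Atp5, plus Cyc1 and without Cox4nb, a gene of another function. The rule took 43 of 21091 entries, and 41 of the 43 had a mean of at least 1 FPKM (fragments scaled to transcript length and library size) over the libraries, as did 12449 of all entries. Cox7b2 and Cox8b stayed below this minimum, and Cox6a2 passed it through 1 library. Of the 43, 34 encode core subunits used in most tissues (9 of complex III, 10 of complex IV and 15 of ATP synthase), 6 encode complex IV isoforms restricted to particular tissues, and 3 encode associated proteins.

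Complex III passes electrons from ubiquinol to cytochrome c, complex IV passes them on to oxygen, and both pump protons out of the mitochondrial matrix. ATP synthase lets the protons flow back through a rotating ring of c subunits, which drives ATP formation in its catalytic head. Most subunits are encoded in the nucleus, translated in the cytosol and imported, and several complex IV subunits exist as paired isoforms that differ between tissues.

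The study asked how deletion of Stat3, a transcription factor activated by cytokines, alters gene expression in neural progenitors between embryonic day 11 (E11) and day 14 (E14). Progenitors came from C57BL/6 embryonic brains and were grown in suspension for 3 days with EGF and FGF before total RNA was taken. The Stat3 cKO embryos carry floxed Stat3 and Cre under the Nestin promoter, so deletion is limited to cells in which that promoter was active. The control (CTL) embryos are WT in the labels and wild-type in the RNA-seq methods, whereas the general account of the animals names Nestin-Cre with 1 floxed Stat3 allele as control. There was 1 library in each of 4 groups (E11 CTL, E11 Stat3 cKO, E14 CTL, E14 Stat3 cKO), and values below are given in that order. With no replicate no difference was tested, no standard deviation exists, and counts of genes past 2-fold are read against the same count over all genes. Differences between embryos, cultures and libraries cannot be told apart from those between groups.

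Stat3 itself was at 7.41, 6.74, 27.6 and 9.55 FPKM, so the E14 Stat3 cKO level was 0.346 times CTL and the E11 level 0.911 times. At E11 the Stat3 level therefore does not show the deletion, and E11 genotype ratios compare the library labelled Stat3 cKO with CTL. Only some exons of Stat3 are floxed, and the paper describes the knockout as achieved by E14. The 8 progenitor markers checked, Sox2 and Nes among them, were at 1 FPKM or more in every library. Y-linked Ddx3y was at 0, 0, 0.0569 and 25.1 FPKM, which sets the E14 Stat3 cKO library apart from the other 3. Neuron markers summed to 690.3, 720.6, 1035 and 880.4 FPKM. The part of the Ddx3y and neuron marker differences in the results below was not tested. Read depth is unknown, because FPKM values do not keep it.

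The sequences before the start sites of 8 genes are shown because these genes carry the results below. Uqcr11 had the largest stage ratio in CTL, and Cox7a2 and Cox7a1 are paired isoforms. Atp5g1, Atp5g2 and Atp5g3 supply the c ring, and Atp5f1 and Atp5o hold a STAT letter match. Each sequence is the 250 bases before a RefSeq start site in GRCm38.p6, 5′ to 3′ on the gene's strand. Capitals mark letters of the motifs searched on both strands: NRF1 (GCGCA and GCGC with any base between), ETS (CCGGAA), YY1 (AAGATGGCG), STAT (TTCNNNGAA), the CCAAT box (CCAAT) and the TATA box (TATAAA). The windows lie at chr10:80406822-80407071, minus strand (Uqcr11), chr9:79759854-79760103, minus strand (Cox7a2), chr7:30183921-30184170, plus strand (Cox7a1), chr11:96075632-96075881, minus strand (Atp5g1), chr15:102671048-102671297, minus strand (Atp5g2), chr2:73911327-73911576, minus strand (Atp5g3), chr3:105959264-105959513, minus strand (Atp5f1) and chr16:91931631-91931880, minus strand (Atp5o).
Uqcr11: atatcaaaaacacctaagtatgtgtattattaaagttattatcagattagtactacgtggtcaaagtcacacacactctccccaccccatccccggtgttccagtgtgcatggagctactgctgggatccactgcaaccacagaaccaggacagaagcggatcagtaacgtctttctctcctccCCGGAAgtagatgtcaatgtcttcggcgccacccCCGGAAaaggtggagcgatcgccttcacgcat
Cox7a2: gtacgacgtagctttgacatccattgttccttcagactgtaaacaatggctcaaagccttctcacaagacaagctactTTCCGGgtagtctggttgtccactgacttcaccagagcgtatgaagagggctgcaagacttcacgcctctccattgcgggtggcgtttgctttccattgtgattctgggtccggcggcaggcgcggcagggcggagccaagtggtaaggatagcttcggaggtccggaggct
Cox7a1: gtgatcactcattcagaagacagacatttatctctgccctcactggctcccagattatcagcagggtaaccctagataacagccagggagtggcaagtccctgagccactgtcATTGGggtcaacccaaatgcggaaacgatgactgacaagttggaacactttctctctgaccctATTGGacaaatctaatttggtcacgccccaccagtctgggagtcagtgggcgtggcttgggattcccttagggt
Atp5g1: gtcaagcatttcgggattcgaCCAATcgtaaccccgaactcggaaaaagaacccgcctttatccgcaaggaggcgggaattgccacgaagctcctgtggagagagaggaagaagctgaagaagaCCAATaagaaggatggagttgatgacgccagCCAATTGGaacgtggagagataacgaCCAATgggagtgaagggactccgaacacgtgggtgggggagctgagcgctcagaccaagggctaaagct
Atp5g2: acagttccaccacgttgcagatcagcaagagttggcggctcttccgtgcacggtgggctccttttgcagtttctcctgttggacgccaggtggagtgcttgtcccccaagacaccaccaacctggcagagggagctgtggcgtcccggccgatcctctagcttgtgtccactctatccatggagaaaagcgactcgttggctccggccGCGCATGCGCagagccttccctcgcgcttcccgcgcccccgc
Atp5g3: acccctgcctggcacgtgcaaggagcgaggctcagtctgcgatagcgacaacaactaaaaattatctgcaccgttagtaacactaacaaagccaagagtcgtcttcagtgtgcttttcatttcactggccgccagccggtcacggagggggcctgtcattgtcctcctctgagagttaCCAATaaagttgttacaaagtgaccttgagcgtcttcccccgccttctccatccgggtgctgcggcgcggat
Atp5f1: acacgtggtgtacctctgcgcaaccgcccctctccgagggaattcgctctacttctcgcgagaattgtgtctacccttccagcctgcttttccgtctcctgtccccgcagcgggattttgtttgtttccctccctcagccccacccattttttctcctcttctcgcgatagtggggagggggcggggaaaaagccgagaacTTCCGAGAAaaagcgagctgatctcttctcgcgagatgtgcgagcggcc
Atp5o: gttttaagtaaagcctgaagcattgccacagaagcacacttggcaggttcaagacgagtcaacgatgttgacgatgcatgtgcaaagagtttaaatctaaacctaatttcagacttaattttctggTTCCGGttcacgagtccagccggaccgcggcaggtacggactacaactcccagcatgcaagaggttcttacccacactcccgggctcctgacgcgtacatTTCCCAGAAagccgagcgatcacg

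Uqcr11 has the ETS letters at 66 and 32 bases before the start, and Cox7a2 has them at 172 on the other strand. The c subunit genes differ from each other. Atp5g1 has the CCAAT letters at 5 places, of which those at 95 and 92 overlap on opposite strands, Atp5g3 has them once, and Atp5g2 has none but holds the NRF1 letters at 42. The STAT letters stand at 49 in Atp5f1 and at 24 in Atp5o. A window was found for 34 of the 43 genes, and for 27 of the 34 core subunits. Among these 27, ETS letters were in 11 (40.7%, against 25.4% of analysed genes and 13.6% of all genes with a window), CCAAT in 14 (51.9% against 41.2% and 37.5%), NRF1 in 5 (18.5% against 9.54% and 4.23%), STAT in 3 (11.1% against 6.97% and 8.13%), YY1 in 1 (3.70% against 1.46% and 0.710%) and TATAAA in 1 (3.70% against 7.38% and 14.3%). TATAAA was the 1 motif of the 6 with a lower share among the core subunits than among analysed genes. The third gene with STAT letters was Atp5d. Short letter strings occur in many promoters, and the matches are descriptions of sequence. The paper itself reports STAT3 binding by chromatin immunoprecipitation at promoters or enhancers of several genes, Atp5b and Atp5o among them. It also reports lower reporter activity for selected regions when their putative STAT3 sites were mutated.

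Core subunit genes were among the more abundant transcripts at both stages. Below, stage ratio means E14 divided by E11, and genotype ratio means Stat3 cKO divided by CTL. In the 4 libraries 27, 30, 33 and 33 of the 34 were at 100 FPKM or more. Over all 12449 genes analysed the counts were 695, 741, 1022 and 908, also higher at E14. Among the 500 highest of the genes analysed were 24, 25, 28 and 27 of the 34. The median level of the 34 was 223, 244, 497 and 439 FPKM. The highest was Atp5b or Atp5k and the lowest Uqcrq in each library, so the spread from lowest to highest subunit was 11.5-fold in E11 CTL and 30.2-fold in E14 CTL. Summed over each complex, complex III was at 0.276, 0.273, 0.302 and 0.300 times ATP synthase and complex IV at 0.677, 0.660, 0.712 and 0.748 times. Across the 34 genes, levels correlated between the CTL and Stat3 cKO libraries with r = 0.992 at E11 and 0.989 at E14, and between the stages with r = 0.944 in CTL and 0.973 in Stat3 cKO, which describes genes and not replicates.

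**Figure D1:**
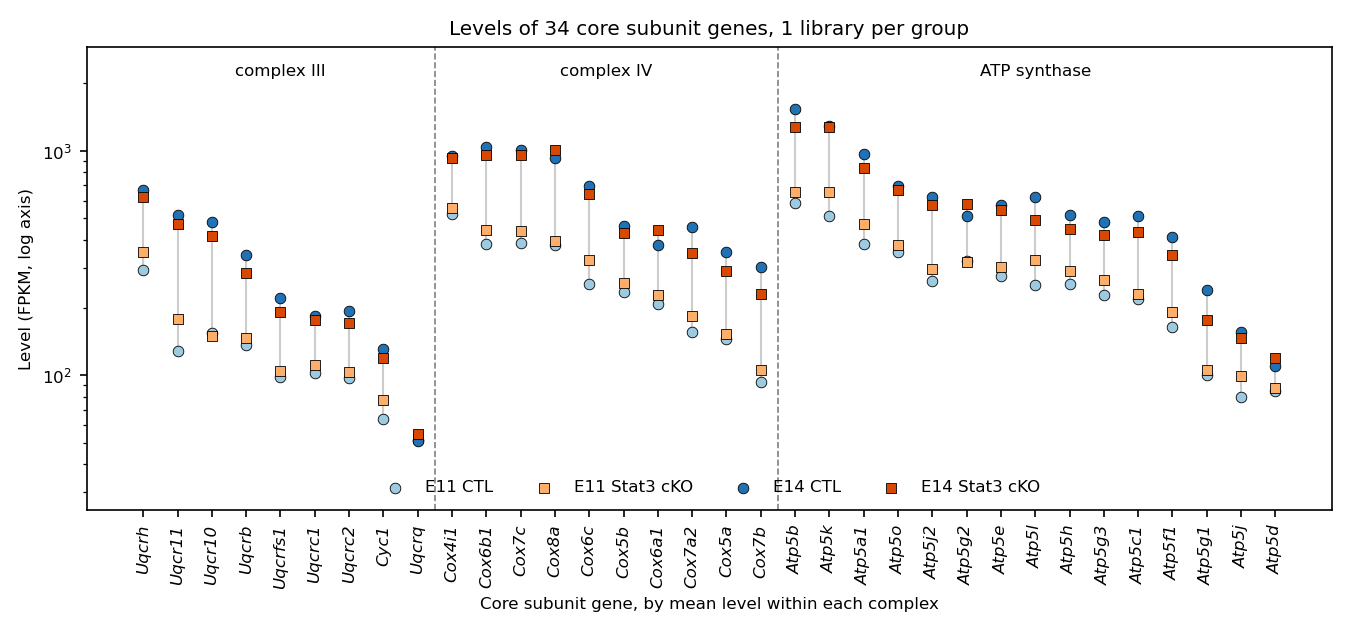
Levels of the 34 core subunit genes (FPKM, log axis), 1 point per library, ordered by mean level within each complex. Most genes form a lower pair of E11 points and an upper pair of E14 points, whereas the 4 points of Uqcrq lie between 50.6 and 54.9 FPKM.

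Between E11 and E14 most core subunit genes were higher at the later stage in both genotypes, as deposited. The libraries themselves summed to 948738, 806587, 1394050 and 1461770 FPKM over all entries, and the core genes held 0.838%, 1.12%, 1.33% and 1.17% of those sums. As a share of the library sum the core genes were thus higher at E14 in CTL and near level in Stat3 cKO. Small RNA genes such as Rmrp and Snord83b, taken by name, made up 50.9%, 40.4%, 53.2% and 58.9% of the sums. Without these 69 genes the core share was 1.71%, 1.88%, 2.85% and 2.84%, higher at E14 in both genotypes. In CTL 25 of the 41 genes with enough signal were at least 2-fold higher at E14 (14.6% of all genes analysed were), all 25 core subunits, and 2 were at least 2-fold lower (12.5% of all genes), both restricted isoforms. In Stat3 cKO 7 were at least 2-fold higher (10.1% of all genes), 6 of them core subunits, and 2 were lower (11.7%). The median ratio of the 34 core subunits was 2.36-fold in CTL and 1.81-fold in Stat3 cKO, beside 1.16-fold and 1.04-fold over all genes. Other abundant genes, those averaging 100 FPKM or more, also had median ratios above 1, at 1.57-fold in CTL and 1.29-fold in Stat3 cKO. On the log2 scale, the core medians were 1.24 and 0.86, beside 0.66 and 0.37 for those other abundant genes. All core subunits except Uqcrq had a stage ratio above 1 in both genotypes, as 60.5% of all genes did in CTL and 53.3% in Stat3 cKO.

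In complex III 7 of 9 subunits were at least 2-fold higher at E14 in CTL and 2 in Stat3 cKO. Uqcr11, a small subunit listed at chr10:79865741-79869566 (coordinates here and below as the files give them, with no build named beside them), was at 129, 178, 516 and 472 FPKM, with a stage ratio of 4.01 in CTL against 2.65 in Stat3 cKO, the largest CTL ratio of the 41 genes analysed. Uqcr10, another small subunit, was at 154, 149, 482 and 418 FPKM, with ratios of 3.13 and 2.80. These were the 2 complex III genes past 2-fold in both genotypes, and in each the E11 and E14 libraries were far apart.

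The subunits that carry the redox centres and the large core proteins had smaller ratios than these. Cyc1, the haem protein cytochrome c1, was at 63.6, 77.7, 131 and 119 FPKM, and Uqcrfs1, the Rieske iron-sulfur protein, at 97.8, 105, 222 and 191 FPKM. Uqcrc1, a core protein that faces the matrix, was at 102, 111, 183 and 175 FPKM, a CTL ratio of 1.79. The second core protein, Uqcrc2, lay at the threshold with a CTL ratio of 2.002. Uqcrb, a small subunit, was at 137, 146, 344 and 285 FPKM, and Uqcrh, the hinge protein beside cytochrome c1, at 294, 354, 671 and 619 FPKM. Uqcrq stood apart from the rest of its complex at 51.1, 52.6, 50.6 and 54.9 FPKM, with all 4 libraries alike and a CTL ratio of 0.990.

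In complex IV 7 of 10 core subunits were at least 2-fold higher at E14 in CTL and 4 in Stat3 cKO. Cox7b, encoded on the X chromosome, was at 93.4, 106, 303 and 231 FPKM, and Cox7a2 at 155, 183, 455 and 351 FPKM. Their CTL ratios were 3.25 and 2.93, the largest in the complex. Cox4i1, the common form of subunit 4, through which ATP is known to regulate the enzyme, had the lowest core ratio at 1.83, with levels of 520.3, 555, 951 and 926 FPKM. Cox6a1 was at 207, 227, 379 and 444 FPKM, with a ratio of 1.83, and Cox5b, which binds zinc, at a ratio of 1.97. Cox6b1, Cox7b, Cox7c and Cox8a were the genes past 2-fold in both genotypes. Cox8a was at 378, 398, 927 and 1006 FPKM, and Cox6b1, which faces cytochrome c, at 382, 441, 1043 and 962 FPKM.

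In ATP synthase 11 of 15 core subunits were at least 2-fold higher at E14 in CTL and 0 in Stat3 cKO, although the largest Stat3 cKO ratio, of Atp5b, was 1.96. Of all genes with a value in both genotypes, 7.15% were 2-fold higher in CTL alone and 7.49% in both. The catalytic head genes were among the highest: Atp5b, which carries the catalytic sites, was at 586, 654, 1528 and 1279 FPKM, and Atp5a1, its partner in the head, at 383, 472, 962 and 838 FPKM. Their CTL ratios were 2.61 and 2.51.

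The central stalk genes were unequal. Atp5d was at 85.1, 87.2, 110.2 and 119 FPKM, a CTL ratio of 1.29, the lowest of the core ATP synthase genes, while Atp5c1, the rotating shaft, had 2.36 and Atp5e 2.07. The membrane genes Atp5k, Atp5j2 and Atp5l had CTL ratios of 2.53, 2.36 and 2.48, with Atp5k at 509, 657, 1289 and 1279 FPKM. Of the peripheral stalk, Atp5f1 and Atp5h were past 2-fold, and Atp5o and Atp5j were just under it at 1.97 and 1.96.

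The stage ratio was larger in CTL than in Stat3 cKO for 29 of the 34 core subunits, a direction held by 62.1% of all genes. The median difference of the log2 ratios was 0.35, beside 0.12 over all genes, or 1.27-fold more in CTL. The size depended on the scaling of the libraries: the difference was 0.19 (28 of 34 genes) with all genes centred on a median of 0, 0.12 (24 genes) with upper-quartile scaling, 0.06 (21 genes) with the median of other genes of at least 100 FPKM set to 0, 0.65 (34 genes) with each library divided by its sum and 0.18 (28 genes) with small RNA genes left out of that sum. Of the 25 core genes past 2-fold in CTL, 6 were also past it in Stat3 cKO and the other 19 were all at least 1.5-fold higher there. Atp5l had the largest difference of log2 ratios, 0.71, from stage ratios of 2.48 (CTL) and 1.52 (Stat3 cKO). Atp5g2, Atp5d, Cox6a1, Cox8a and Uqcrq had the larger ratio in Stat3 cKO. Across the 34 genes the ratios in the 2 genotypes had r = 0.82 and rho = 0.75, a description of genes measured in the same libraries.

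**Figure D2:**
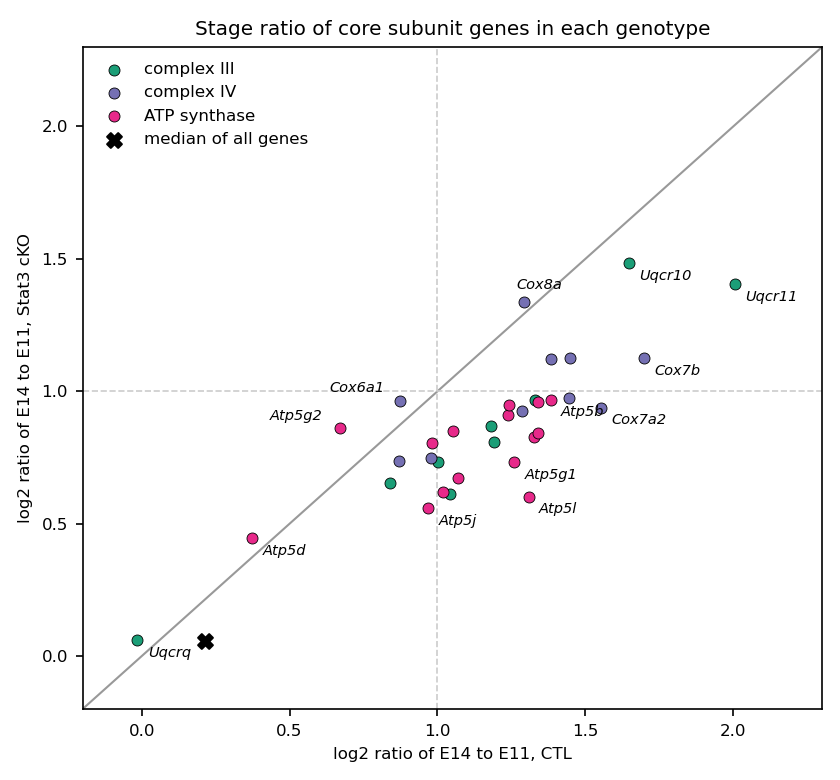
The log2 ratio of E14 to E11 in CTL (x axis) against the same in Stat3 cKO (y axis) for the 34 core subunit genes, coloured by complex, with the median of all genes as a cross, equal ratios on the solid line and 2-fold on the dashed lines. Of the 34 points 29 lie below the solid line, and 19 lie right of the vertical dashed line but under the horizontal one.

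As deposited, the core subunit genes differed between genotypes by less than 1.5-fold, and their medians lay on opposite sides of 1 at the 2 stages. At E14 0 of the 41 genes reached 2-fold above CTL (1.85% of all genes did) and 0 reached 2-fold below it (1.69%). The core median was 0.918 times CTL, beside 0.947 over all genes and 0.891 over the other abundant genes. In 29 of 34 core genes the E14 ratio was below 1, as it was in 60.1% of all genes. At E11 0 were 2-fold higher (0.209% of all genes) and 1 was 2-fold lower (1.12%), the restricted isoform Cox6a2. The E11 core median was 1.11 times CTL, beside 1.04 over all genes, with 32 of 34 ratios above 1 (61.8% of all genes). In 28 of 34 core genes the ratio was above 1 at E11 and below 1 at E14, as it was in 38.7% of all genes. That count was 22 with all genes centred, 14 with upper-quartile scaling, 8 with abundant genes centred, 29 with library sums and 17 with sums that leave out small RNA genes. The reverse pattern held for 1 core gene as deposited and for 3, 3, 5, 0 and 3 under those scalings. Shares of all genes under those scalings, and for the reverse pattern, were not computed, so these counts have no background beside them.

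These small genotype differences moved with the scaling of the libraries. With each library divided by its upper quartile, 15 of 34 core genes were below 1 at E14 and 19 above, and the core median turned from -0.12 to 0.03 on the log2 scale. That scaling shifts every E14 log2 ratio by 0.15. With all genes centred on a median of 0, 23 were below 1. The direction of the E14 difference is therefore not fixed by these values, whereas the order of the subunits by ratio does not depend on the scaling.

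By complex, the median log2 genotype ratio at E14 was -0.14 for complex III, -0.10 for complex IV and -0.18 for ATP synthase, and at E11 it was 0.10, 0.16 and 0.17. Among core subunits the lowest E14 ratios were of Atp5g1 (0.728 times CTL), Cox7b (0.761), Cox7a2 (0.771) and Atp5l (0.792), and in complex III of Uqcrb (0.828) and Uqcrfs1 (0.861). The highest core ratios were of Cox6a1 (1.17), Atp5g2 (1.14), Cox8a (1.08), Uqcrq (1.08) and Atp5d (1.08). Atp5l was at 251, 324, 622 and 493 FPKM. As deposited, no core gene differed by 1.5-fold between genotypes at either stage. With each library divided by its sum the highest core E11 log2 genotype ratio was 0.71, of Uqcr11, which is past 1.5-fold. The study followed Cyc1, Uqcrh, Atp5b, Atp5g1, Atp5h and Atp5o singly, and their E14 ratios here were 0.906, 0.923, 0.837, 0.728, 0.861 and 0.958. These genes were chosen from these libraries, so the ratios here are not independent evidence of a direction. In separate RT-qPCR measurements the paper reports them as significantly lower in E14 Stat3 cKO progenitors. It reports the proteins of oxidative phosphorylation genes as unaltered at E14 and lower at a later stage.

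**Figure D3:**
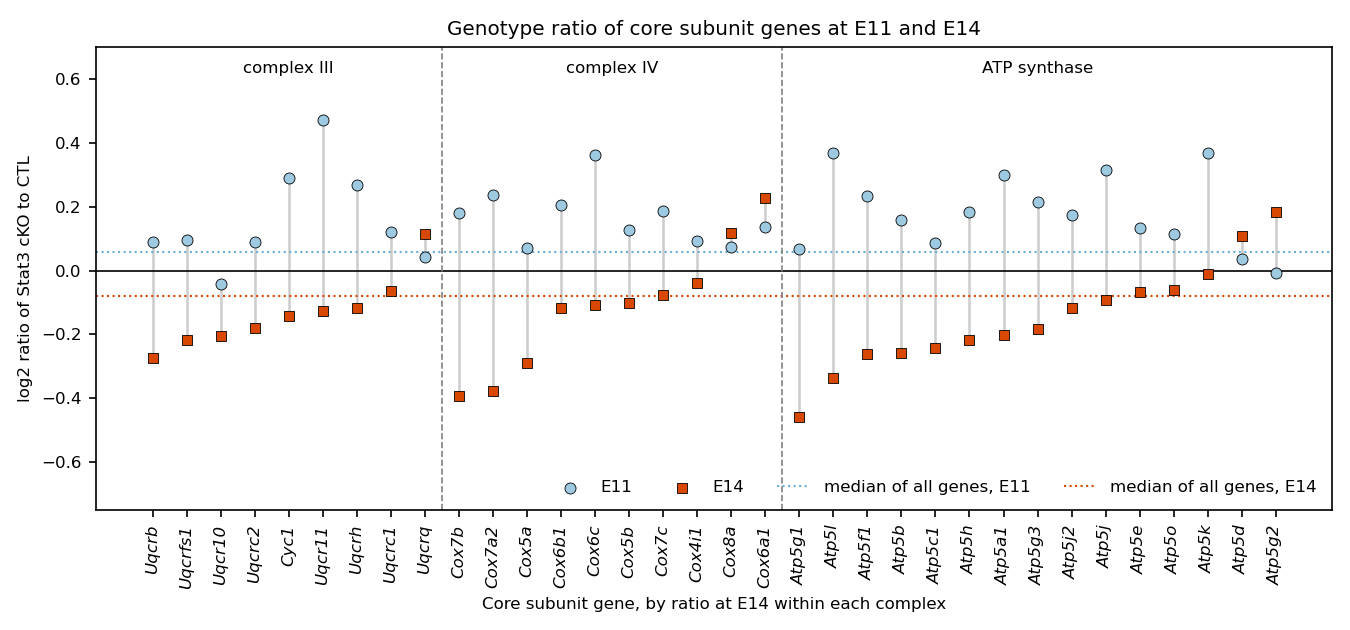
The log2 genotype ratio of the 34 core subunit genes at E11 (circles) and E14 (squares), ordered by the E14 ratio within each complex, with dotted lines at the medians of all genes. The circles lie above 0 for 32 genes and the squares below 0 for 29, with values from -0.46 (Atp5g1, E14) to 0.47 (Uqcr11, E11).

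Atp5g1, Atp5g2 and Atp5g3 encode precursors that are cut to the same mature c subunit and differ in their import sequences. Atp5g2 was the highest of them in every library at 322, 320.2, 512 and 581 FPKM, Atp5g3 was next at 229, 265, 480.0 and 423 FPKM and Atp5g1, listed at chr11:95934106-95937008, lowest at 101, 106, 241 and 175 FPKM. As shares of their summed FPKM, which no scaling between libraries can alter, Atp5g1 made up 15.5%, 15.3%, 19.5% and 14.9%, and Atp5g2 49.4%, 46.3%, 41.6% and 49.3%. The E14 CTL library was the one with the higher Atp5g1 and lower Atp5g2 share, while the other 3 were alike in Atp5g1. The summed level of the 3 genes was 651, 691, 1233 and 1179 FPKM. The start-site windows of the 3 genes, shown above, hold different motif letters, CCAAT at 5 places for Atp5g1 and none for Atp5g2.

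Among the tissue isoforms of complex IV, the common form supplied nearly all of the signal in every library. Cox4i2, the subunit 4 isoform known from lung and from contractile cells of vessels, is listed at chr2:152579908-152590773 and was at 5.50, 4.08, 0.560 and 1.03 FPKM, beside the far higher Cox4i1. Its share of the pair was 1.05%, 0.729%, 0.0588% and 0.111%. Both E14 libraries were below both E11 libraries, with stage ratios of 0.102 (CTL) and 0.252 (Stat3 cKO), and at E14 the Stat3 cKO level was 1.84 times CTL. Most markers of pericytes and vessels moved with it: 6 of 9 were lower at E14 in both genotypes (34.4% of all genes analysed were), the list summed to 20.7, 21.8, 7.13 and 9.08 FPKM, and Pdgfrb, a pericyte receptor, was at 13.2, 14.4, 0.625 and 1.58 FPKM. The other 3 did not fall in both genotypes: Rgs5, a pericyte gene, was at 0.490, 0.447, 0.553 and 0.411 FPKM, Cldn5, an endothelial tight junction gene, at 0.511, 0.567, 0.551 and 1.04 FPKM, and Cspg4 at 0.560, 0.563, 4.84 and 5.35 FPKM. None of the 9 was at 0. Of the other pericyte genes, Kcnj8 was at 1.204, 1.13, 0.0952 and 0.112 FPKM and Abcc9 at 0.884, 0.724, 0.0434 and 0.0609 FPKM. Vessel markers were not alone in this: 6 of 6 microglia markers were lower at E14 in both genotypes, with sums of 7.37, 4.56, 0.498 and 0.616 FPKM, as were 3 of 4 erythroid markers measured, with sums of 24.6, 3.62, 2.11 and 1.07 FPKM. Of the other lists, 6 of 13 muscle, 1 of 4 brown fat, 1 of 4 germ cell, 1 of 7 neuron and 2 of 8 progenitor markers were lower in both. The part of these cell types in the Cox4i2 levels was not tested, and in whole cultures fewer cells of a type and less RNA per cell cannot be told apart.

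Cox6a2, the heart and muscle isoform of subunit 6a, was at 6.03, 0.121, 0.10002 and 0.146 FPKM, so 1 library alone held a level above 1 FPKM. Its share of the Cox6a1 and Cox6a2 pair was 2.83%, 0.0532%, 0.0264% and 0.0330%. In E11 CTL all 13 muscle markers checked were under 1 FPKM and summed to 2.02 FPKM. Erythroid and microglia markers were higher in the E11 CTL library than in its Stat3 cKO counterpart, in 4 of 4 and 6 of 6 genes measured (38.2% of all genes analysed were higher in E11 CTL), with sums of 24.6 against 3.62 FPKM and 7.37 against 4.56 FPKM. So were 4 of 4 brown fat markers (2.16 against 1.51 FPKM), 5 of 7 neuron, 6 of 13 muscle, 4 of 9 pericyte and vessel, 2 of 4 germ cell and 1 of 8 progenitor markers. Their part in the Cox6a2 level was not tested. The entry spans chr7:135317459-135349880 as listed, 32422 bases that overlap Itgad, whereas the RefSeq gene spans 932 bases, so reads of a neighbour and of Cox6a2 may not be told apart. Itgad itself was listed at 0.00885, 0.0125, 0 and 0.0258 FPKM.

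Cox7a1, the heart and muscle form of subunit 7a, was at 2.85, 2.50, 4.77 and 5.63 FPKM, and was thus higher in both E14 libraries, with stage ratios of 1.67 (CTL) and 2.25 (Stat3 cKO). It was the only gene of the 41 analysed to pass 2-fold in Stat3 cKO and not in CTL. Cox7a2 was also higher at E14, and the Cox7a1 share of the pair was 1.80%, 1.34%, 1.04% and 1.58%. Cox6b2, the testis form of subunit 6b, was at 10.2, 12.4, 5.44 and 3.97 FPKM. It had ratios of 0.532 and 0.321, the opposite direction to Cox6b1, and an E14 genotype ratio of 0.730. Its share was 2.60% and 2.73% in the E11 libraries and 0.519% and 0.411% in the E14 libraries. The 2 libraries of a stage differ in genotype and are not replicates of that stage. The testis form Cox7b2 was at 0.0498, 0.0640, 0.121 and 0.164 FPKM. Cox8b, the heart, muscle and brown fat form of subunit 8, was listed at 0, 0, 0.331 and 0.426 FPKM, beside Cox8a at 378 FPKM or more. The 4 germ cell markers were all under 1 FPKM in every library, and Ucp1, the brown fat uncoupling protein, was at 0.236, 0.133, 0.166 and 0.0561 FPKM.

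**Figure D4:**
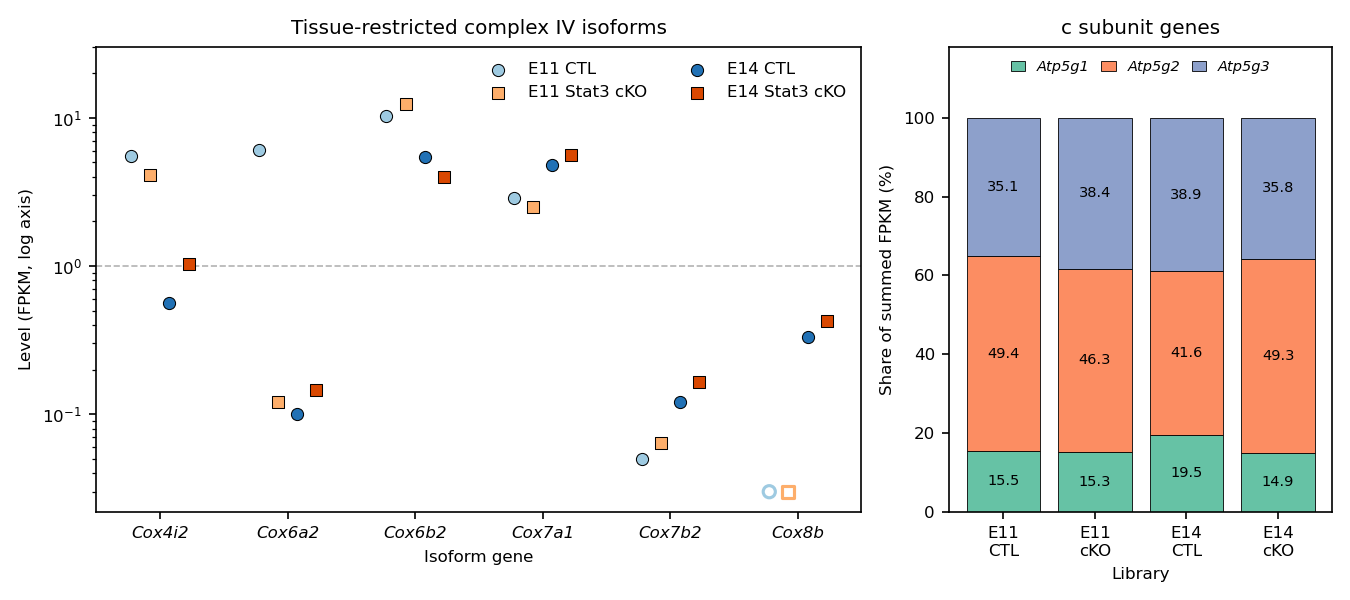
Left, levels of the 6 tissue-restricted complex IV isoforms (FPKM, log axis), 1 point per library, with open points at the foot for values listed at 0 and a dashed line at 1 FPKM. Right, the share of Atp5g1, Atp5g2 and Atp5g3 in their summed FPKM per library, where the Atp5g1 share is 19.5% in E14 CTL and 14.9% to 15.5% elsewhere.

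The 3 associated genes had stage ratios below the core medians. Cox7a2l, which links complexes III and IV into supercomplexes, was abundant at 348, 293, 374 and 396 FPKM, with stage ratios of 1.07 (CTL) and 1.35 (Stat3 cKO). Atp5s, the coupling factor B, was at 4.36, 3.73, 6.03 and 5.21 FPKM, with ratios of 1.38 and 1.39, above those of core Atp5d (1.29 and 1.36) and Uqcrq (0.990 and 1.04). Atp5sl, a complex I assembly factor despite its name, was at 3.31, 4.61, 3.81 and 3.98 FPKM, with ratios of 1.15 and 0.863. At E11 the Stat3 cKO levels of Cox7a2l and Atp5s were 0.843 and 0.856 times CTL, which set them against 32 of the 34 core genes.

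Genes that act beside the complexes were followed in lists. Cycs, the cytochrome c that carries electrons from complex III to complex IV, was at 37.8, 39.6, 185 and 95.01 FPKM, the E14 CTL library standing above the rest. Its stage ratio was 4.89 (CTL) against 2.40 (Stat3 cKO), and its E14 genotype ratio was 0.513, lower than that of any core subunit. Of 5 complex III assembly genes 1 was 2-fold higher at E14 in each genotype, Mnf1, which was at 109, 123, 282 and 276 FPKM; Bcs1l, which inserts the Rieske protein, had the lowest E14 genotype ratio at 0.770 with levels of 6.16, 5.78, 10.5 and 8.09 FPKM. Of 21 complex IV assembly genes 6 were 2-fold higher in CTL and 0 in Stat3 cKO, and their median E14 genotype ratio was 0.873. Fastkd2, a mitochondrial RNA-binding protein, was lowest at 0.558 with levels of 7.36, 8.24, 15.98 and 8.92 FPKM, and Higd2a highest at 1.14 with 46.98, 53.8, 74.7 and 84.9 FPKM.

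Of 6 genes that assemble, inhibit or join ATP synthase 3 were 2-fold higher at E14 in CTL and 1 in Stat3 cKO. Usmg5, a small membrane subunit outside the naming rule, was at 211, 240.2, 603 and 462 FPKM, and the assembly factor Atpaf2 at 8.40, 9.67, 19.01 and 17.1 FPKM. None of these assembly genes was 2-fold apart between genotypes. Of the 36 complex I genes 18 were 2-fold higher in CTL and 8 in Stat3 cKO, with median ratios of 2.003 and 1.79. Their E14 genotype ratios ran from 0.670 (Ndufs6) to 1.21 (Ndufa3). The 4 complex II genes had E14 genotype ratios from 0.801 (Sdhd) to 0.962 (Sdhc). The 75 mitochondrial ribosomal protein genes had median stage ratios of 1.91 and 1.45, with 35 past 2-fold in CTL and 3 in Stat3 cKO. Their median E14 genotype ratio was 0.829, and 1 of them, Mrpl12, was 2-fold lower at 0.471 with levels of 31.9, 44.3, 96.4 and 45.4 FPKM, while Mrps15 was highest at 1.09.

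Many of the genes have short transcripts, and some have near copies in the genome. By the longest annotated transcript 23 of the 43 genes (17 of the 34 core subunits) were under 1000 bases, 53.5%, against 4.71% of all genes analysed, and fragment length affects FPKM most for short transcripts. The part of length in the stage ratios was not tested. Other genes under 1000 bases had a median E14 to E11 ratio of 1.52 (CTL) and 1.41 (Stat3 cKO), between that of all genes and that of the core subunits. Those of them averaging 100 FPKM or more were closer to the core subunits, with medians of 1.71-fold and 1.56-fold, and 69 of 200 were past 2-fold in CTL and 55 of 196 in Stat3 cKO. Named pseudogenes are listed by RefSeq for Atp5k (4), Uqcrh (2), Atp5l (2), Cox5b, Cox7c and Atp5c1 (1 each), and how reads were divided among such copies is not given in the sources used here, so these levels are uncertain. The entries of Atp5j, Atp5f1 and Uqcrc2 overlap Gabpa, Wdr77 and Pdzd9, whose own levels were 20.3, 22.9, 27.7 and 25.8 FPKM, 19.4, 23.1, 30.5 and 17.9 FPKM and 1.07, 1.43, 1.34 and 2.33 FPKM.

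**Figure D5:**
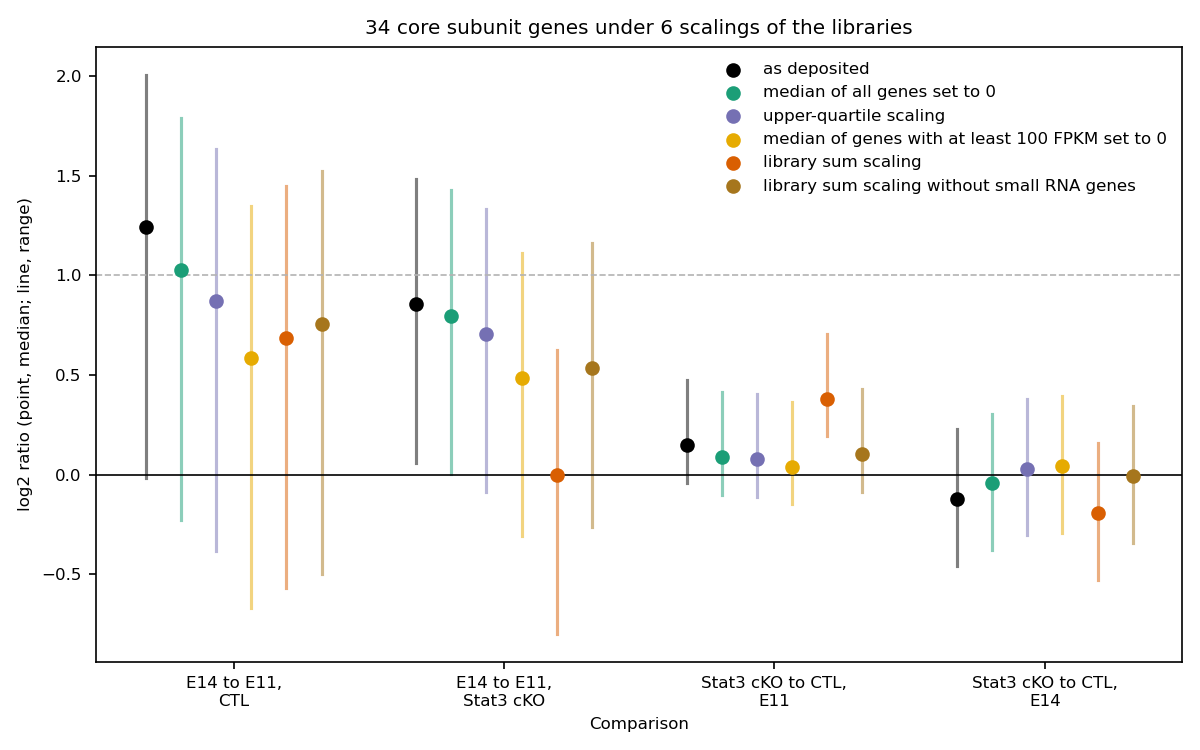
The median (point) and range (line) of the log2 ratio over the 34 core subunit genes for 4 comparisons under 6 scalings of the libraries, with the dashed line at 2-fold. The CTL stage median lies between 0.58 and 1.24, the Stat3 cKO stage median between -0.0021 (library sums) and 0.86, and the E14 genotype median between -0.19 (library sums) and 0.04 (abundant genes centred).

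The core stage median stayed above 1 under each of the 6 scalings in CTL, and in Stat3 cKO under all except division by library sums. With each library divided by its sum it was 0.68 in CTL and -0.0021 in Stat3 cKO on the log2 scale. Then 32 and 17 of 34 genes were above 0 and 3 and 0 past 2-fold. Single small RNA genes weighed heavily in those sums. Snord83b was at 42734, 0, 62839 and 248284 FPKM and Mir5133 at 85467, 52888, 125678 and 0 FPKM. With small RNA genes left out of the sum the medians were 0.76 and 0.53, with 32 and 33 genes above 0 and 4 and 3 past 2-fold. When the median of other genes of at least 100 FPKM was set to 0 they were 0.58 and 0.49, and 2 core genes were past 2-fold in each genotype. The number of core genes past 2-fold in CTL was 18 with all genes centred and 8 with upper-quartile scaling, beside 25 as deposited. Upper-quartile scaling shifts every stage log2 ratio by -0.37 in CTL and -0.15 in Stat3 cKO.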

How the data were processed

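RNA of 1 library per group was sequenced on an Illumina HiSeq. The authors aligned reads with TopHat and estimated FPKM with Cufflinks, and deposited 1 table of FPKM per library. The submitters' processing notes name Bowtie 0.12.2 and the builds mm8 and mm9 without saying which was used for what. FPKM divides by transcript length and by library total, so a few very abundant genes can shift all other values.

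From these values, plain ratios without a pseudocount were computed in 4 contrasts for genes averaging 1 FPKM or more (Python 3.11.15, pandas 2.3.3). A threshold of 2-fold was used, and no test was run because each group has 1 library. Genes with a 0 in either library of a contrast have no ratio there. Lists were described by their counts and medians beside all genes analysed. The ratio script was tested on simulated data. The members and lists were chosen with earlier results of these data known. Every gene taken by the naming rule may be named. Values in all 4 libraries are given for isoform families and for the 2 highest and 2 lowest genes per complex in the E14 genotype and CTL stage ratios. Genes of other lists are named when 2-fold apart between genotypes or at the end of their list at E14. Promoter windows came from RefSeq on GRCm38.p6, and 34 members matched. Windows reach 250 bases upstream, and a gene with several start sites counts as holding a motif if any window does. Transcript lengths are the longest in GENCODE. Library sums were also taken without small RNA genes, matched by name (Snora, Snord, Mir, Scarna, Rnu, Rmrp, Rpph1 and the like). Alternatives were other pseudocounts, scalings, minima, thresholds and member sets.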

Additional observations from a re-analysis of the deposited data

Results flagged for a closer look

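Some genes lay on opposite sides of 1 in 2 groups under the same contrast, and with 1 library per group none of these differences was tested. Of the 41 genes analysed, 29 had a genotype ratio (Stat3 cKO divided by CTL) above 1 at E11 and below it at E14, a pattern found in 38.7% of all genes, and 5 had the reverse. The count depended on the scaling of the libraries: of the 41 it was 23 with all genes centred on a median of 0, 15 with upper-quartile scaling, 9 with abundant genes centred, 32 with each library divided by its sum and 18 with small RNA genes left out of that sum. The reverse count under these was 7, 7, 9, 3 and 7, so with abundant genes centred the 2 directions were equally frequent. The 38.7% is for the deposited scale, and no share of all genes was computed for the other scalings or for the reverse pattern. Cox4i2 was one of the 5, with a log2 ratio of -0.43 at E11 and 0.88 at E14. Cox6a2 was another, with -5.64 at E11 and 0.55 at E14, and its log2 stage ratio (E14 divided by E11) was -5.91 for CTL against 0.27 for Stat3 cKO. These Cox6a2 values rest on its 6.03 FPKM in the E11 CTL library, since the other 3 libraries were between 0.10002 and 0.146 FPKM. Their size depends on how near 0 those levels are: with 0.1 and 1 FPKM added to every value, the E11 log2 genotype ratio of Cox6a2 was -4.79 and -2.65, the E14 one 0.30 and 0.059, and the stage ratio -4.94 and -2.68 for CTL and 0.16 and 0.032 for Stat3 cKO.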

How the results depend on the processing

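No paired analysis was possible because each group has 1 library, and for the same reason no replicate could be left out. Of 104 counts of genes past the threshold, 85 stayed within 1.5 times the deposited-scale count. On their side of 1 and within 1.5-fold stayed 147 of 164 medians and 1285 of 1456 ratios of single genes. These totals include values that could not move. A changed minimum mean cannot alter the ratio of a single gene, and 144 and 164 of the unmoved ratios came from those settings. The 12 complex medians under each changed minimum were fixed too, because every core gene averaged above it. No value past 2-fold changed direction. Of the 171 single-gene ratios that moved, 165 did so under a scaling and 6 under a pseudocount, namely those of Cox6a2 and, with 1 FPKM added, the stage ratios of Cox4i2 (-2.06 in CTL and -1.32 in Stat3 cKO, from -3.30 and -1.99). The counts, medians and isoform shares that moved follow, and their causes were not tested beyond what each setting does by construction. With upper-quartile scaling the count at least 2-fold higher was 1 for Stat3 cKO to CTL at E14, 8 for E14 to E11 in CTL and 4 for the same in Stat3 cKO; the E14 genotype median was 0.036 over members, 0.011 for complex III and 0.048 for complex IV. With the median of genes of at least 100 FPKM set to 0, a setting added after seeing the data, those counts were 1, 2 and 2. The E14 genotype medians were then 0.050 over members, 0.025 for complex III and 0.062 for complex IV, the E11 median of complex III was -0.011, and the E14 to E11 medians in CTL were 0.42 over members, 0.53, 0.68 and 0.58 for complex III, complex IV and ATP synthase. With each library divided by its summed FPKM, also added later, the count at least 2-fold higher was 3 (CTL) and 0 (Stat3 cKO) for E14 to E11, and the Stat3 cKO medians were -0.030 over members, -0.051, 0.11 and -0.030 for complex III, complex IV and ATP synthase. With small RNA genes left out of the sum, added later too, the counts were 4 and 3, and the E14 genotype medians 0.00090 over members and 0.013 for complex IV. A threshold of 1.5-fold gave 1 gene higher at E14 between genotypes and 32 genes for E14 to E11 in Stat3 cKO. A threshold of 3-fold gave 3 genes in CTL and 0 in Stat3 cKO. A minimum mean of 5 FPKM left 0 genes 2-fold lower at E11, 0 for E14 to E11 in CTL and 1 in Stat3 cKO. Leaving out Cox6a2, also added later, gave 0 lower at E11 and 1 for E14 to E11 in CTL. Isoform shares of faint genes rose with a pseudocount, which by construction adds equally to both forms. With 1 FPKM added, Cox4i2 was at 0.164% and 0.218% in the E14 CTL and Stat3 cKO libraries. Cox6a2 was at 0.0971% (0.1 FPKM added) and 0.488% (1 FPKM) in E11 Stat3 cKO, 0.0527% and 0.288% in E14 CTL, and 0.0555% and 0.257% in E14 Stat3 cKO. Cox7b2 was at 0.160%, 0.155%, 0.0728% and 0.114% in the 4 libraries with 0.1 FPKM added and at 1.0995%, 0.986%, 0.367% and 0.4996% with 1 FPKM. Cox8b was at 0.0264% and 0.0251% in the E11 libraries with 0.1 FPKM added, and at 0.263%, 0.250%, 0.143% and 0.141% in the 4 with 1 FPKM. Depth is unknown, so no counting error can be given for these faint genes.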
